A study of Mus musculus with 2 samples.

Results

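Fcer2a-positive B cells were B cells of the neonatal mouse mesentery that carried transcripts of both Fcer2a, the low-affinity IgE receptor CD23, and Ighd, the constant region of IgD. They were selected on measured values. A cell had at least 2000 unique molecular identifiers (UMIs, 1 per captured RNA molecule), at most 10% mitochondrial UMIs, 0 UMIs of the endothelial gene Cdh5, at least 3 UMIs of the B cell receptor subunit Cd79a and 0 UMIs of Cd3d, Cd3e and Cd3g together. It further had at least 1 UMI each of Fcer2a and Ighd, and at most 2 UMIs of the proliferation genes Mki67 and Top2a together. This gave 1798 of 11273 cells, of which 1256 lay among the 6814 cells of the control library and 542 among the 4459 cells of the Flcn iΔEC library.

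The data were single-cell RNA counts of CD31+ cells that had been taken from the mesentery of C57BL/6 mice at P8 with antibody-coated beads, in 1 library per genotype. Each library pooled the cells of 3 mice. In Flcn iΔEC mice, Flcn was floxed on both alleles and deleted by the tamoxifen-inducible Cdh5-BAC-CreERT2 driver, a driver known for endothelial cells. Recombination in the B cells was not measured, and their lack of Cdh5 was set by the selection. Control mice are labelled only as controls, and both groups had 4 injections of 40 μg 4-hydroxytamoxifen under the skin, the first at P2 and the last at P6.5. With 1 library per genotype no test between genotypes was possible, and every 95% interval below covers counting error only. Differences between the genotypes, the pools of mice and the library preparations cannot be told apart. The driver's target Flcn stood at 23.0 CPM (UMIs of a gene per 1000000 UMIs summed over a group of cells) in control Fcer2a-positive cells and at 24.3 CPM in those of Flcn iΔEC, a ratio of 1.06 (0.829 to 1.35).

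As background, B cells leave the bone marrow as immature, transitional cells and settle in follicles of the spleen and lymph nodes or in the marginal zone, while B-1 cells arise largely before and around birth and populate the body cavities. CD23 is a surface lectin that binds IgE and is characteristic of follicular B cells, and it is low or absent on marginal zone and B-1 cells. Naive follicular cells carry IgD together with IgM, 2 heavy chain constant regions that are spliced from 1 transcript. B cells present antigen on MHC class II molecules, whose expression depends on the coactivator Ciita. Each B cell normally expresses 1 light chain, kappa or lambda.

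The label was checked against its markers. Bank1, an adaptor of B cell receptor signalling, had a UMI in 89.9% of control and 87.5% of Flcn iΔEC Fcer2a-positive cells, and Cd22, an inhibitory lectin of the receptor, in 63.9% and 61.6%. In T cells, defined here by 0 UMIs of Cd79a and at least 3 of the CD3 genes, Bank1 was found in 1.35% and 0.768% and Cd22 in 0.931% and 0.672%. Fcer2a-negative B cells carried them nearly as often, Bank1 in 83.9% and 82.1% and Cd22 in 60.6% and 58.5%, so these markers set the cells apart from T cells and not from other B cells. Median depths were 6036.5 and 7440 UMIs in Fcer2a-positive cells and 7488 and 7813 UMIs in the 2363 and 1041 T cells. The transcription factors Ebf1 and Pax5, which maintain B cell identity, had a UMI in 99.6% and 80.2% of control and in 100% and 76.0% of Flcn iΔEC Fcer2a-positive cells. Among genes of B cell precursors, 3 were at or near 0, with Rag1 at 0.696 and 0.689 CPM and Dntt and Rag2 at 0 UMIs. Other early genes were not silent. Vpreb3 had a UMI in 694 of 1256 control cells and in 306 of the 542 Flcn iΔEC cells, and Myb is given below. The 14 genes of the immature and transitional list summed to 653 and 601 CPM, against 791 and 879 CPM in T cells. Cd93, a receptor of transitional B cells, was found in 9.0% of control and 14.6% of Flcn iΔEC cells, against 1.18% and 1.92% of T cells. Fcer2a-negative B cells held it in 9.78% and 13.9%. No criterion of the selection measured maturity, and the Fcer2a-positive cells were not uniformly without transcripts of the transitional stage.

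Markers of other cell types were low. The 14 T cell genes summed to 67.5 CPM in control Fcer2a-positive cells and to 40.0 CPM in those of Flcn iΔEC, against 7869 and 6888 CPM in T cells, with 3 of the 14, the CD3 genes of the selection, at 0 in each. The 14 myeloid genes found in the files summed to 81.9 and 58.6 CPM, mostly Tyrobp, with 1 and 3 genes at 0. The 9 stromal genes summed to 8.35 and 4.36 CPM, with 2 and 4 at 0. Of the 12 endothelial genes, 218.7 and 165.6 CPM in all, Pecam1, the CD31 antigen used for the isolation, accounted for 198.2 and 130.9 CPM, and only Cdh5, set to 0 by the selection, was at 0. The erythroid and platelet list is described with the hemoglobin genes. Of the cell barcodes, 6 occurred in both libraries and 0 of these were Fcer2a-positive cells in both. Scrublet called 142 control and 40 Flcn iΔEC cells doublets, 2.08% and 0.897%, among them 2 and 3 Fcer2a-positive cells, which were kept.

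How many B cells carried Fcer2a was counted within 2132 control and 1254 Flcn iΔEC cells that met all criteria other than those on Fcer2a and Ighd. Cells with both transcripts were 58.9% (56.8 to 61.0%) of these gated B cells in the control, against 43.2% (40.5 to 46.0%) in Flcn iΔEC. Another 150 and 49 cells had Fcer2a without Ighd, and 726 and 663 cells had 0 UMIs of Fcer2a, 521 and 506 of them with Ighd. The difference between the libraries lay in Fcer2a more than in Ighd, since Ighd was found in 83.3% of control and 83.6% of Flcn iΔEC gated B cells, and Fcer2a in 65.9% and 47.1%. After each cell had been thinned at random to 2000 UMIs, Fcer2a was found in 45.3% (43.1 to 47.4%) and 26.7% (24.3 to 29.3%), and Ighd in 52.6% and 48.4%. T cells thinned in the same way had a Fcer2a UMI in 0.169% and 0.384% of cells. These shares rest on 1 library each.

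**Figure D1:**
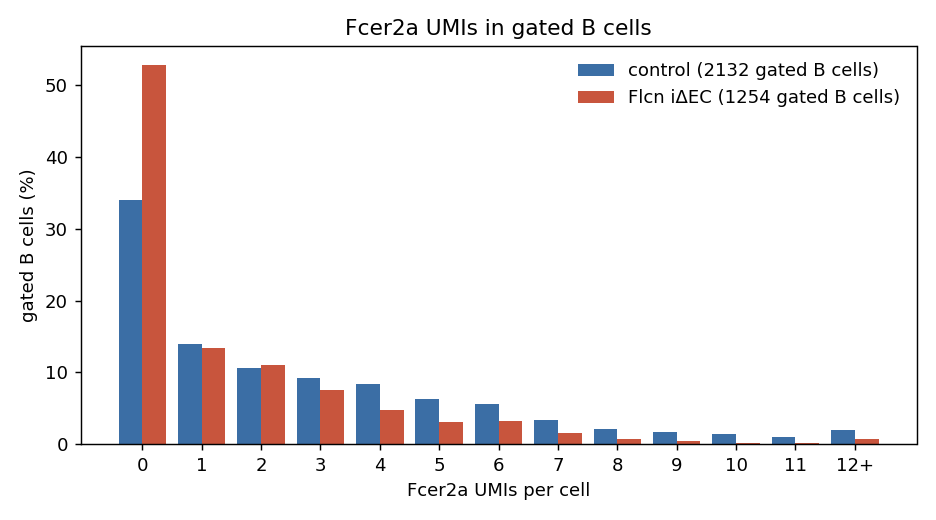
Fcer2a UMIs per cell (x axis, with 12 or more in the last bin) against the percentage of gated B cells (y axis) in the control (2132 cells) and Flcn iΔEC (1254 cells) libraries. Cells with 0 UMIs were 34.1% of the control, against 52.9% of Flcn iΔEC cells, and the control bars are higher from 3 UMIs on.

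The selection cut through a continuous distribution. With all other criteria met, 260 control and 153 Flcn iΔEC cells had exactly 1 Fcer2a UMI, just inside the threshold, and 521 and 506 had 0, just outside it. For Ighd, 216 and 96 cells had exactly 1 UMI, and 150 and 49 had 0. The Cd79a threshold was nearly empty, with 4 and 3 cells at 3 UMIs and 4 and 1 at 2, below medians of 14 and 15.5 UMIs. The CD3 criterion kept out 109 and 20 cells that had exactly 1 CD3 UMI and met the other criteria, the Cdh5 criterion 30 and 17 cells with 1 UMI, and the proliferation criterion 7 and 7 with 3, while 8 and 0 had 10 to 11% mitochondrial UMIs. Before the criteria on Fcer2a, Ighd and proliferation, the CD3 criterion removed 327 control cells, 13.03% of those with Cd79a, and 89 Flcn iΔEC cells, 6.22%. More than 2 UMIs of Mki67 and Top2a were found in 51 control B cells, 2.34%, and in 89 Flcn iΔEC B cells, 6.63%. Depth moved with the share: among cells with 6000 to 8000 UMIs it was 66.3% in the control, against 51.8% in Flcn iΔEC, and among cells with at least 12000 UMIs 36.3% and 20.6%. In each of the 6 depth classes the control share was the higher, although the 95% intervals overlapped among cells of under 4000 and of 8000 to 12000 UMIs.

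Fcer2a lies on chromosome 8 of GRCm38, the build to which the submitters aligned (3681737 to 3694175, minus strand). RefSeq gives 3 start sites, and the 250 bases before the outermost and the middle one are shown because Fcer2a defines the cells and because interleukin-4, acting through STAT6, is a known inducer of the gene. In capitals is the motif TTCNNNNGAA, the spacing that STAT6 prefers, which reads the same on both strands. It was found in the window of the middle start site only (5′ to 3′ on the gene's strand, chr8:3694175-3694424 for the outermost and chr8:3690862-3691111 for the middle start).
Fcer2a outermost start: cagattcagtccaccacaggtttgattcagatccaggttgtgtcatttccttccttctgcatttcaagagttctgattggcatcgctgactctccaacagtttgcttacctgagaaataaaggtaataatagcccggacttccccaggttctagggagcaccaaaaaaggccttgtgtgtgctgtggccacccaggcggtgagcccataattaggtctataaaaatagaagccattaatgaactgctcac
Fcer2a middle start: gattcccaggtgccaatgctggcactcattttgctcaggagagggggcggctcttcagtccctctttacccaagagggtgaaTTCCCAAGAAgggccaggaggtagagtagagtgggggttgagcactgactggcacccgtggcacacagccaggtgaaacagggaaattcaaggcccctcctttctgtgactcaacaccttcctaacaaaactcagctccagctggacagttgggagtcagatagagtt
The motif began 168 bases before that start and was present in 1923 of the 32851 RefSeq windows of the same length, 5.85%. A match describes letters only, and the 3′ counts do not tell which start was used.

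Per cell, Fcer2a-positive cells of the control held more Fcer2a. The summed level, which the selection used, was 616 CPM in the control, against 398 CPM in Flcn iΔEC. Ighd, also used, stood at 606 and 511 CPM. Apart from Fcer2a and Ighd, few genes of the B cell receptor lists passed 2-fold between libraries. Over all 8728 genes tested the shares were 0.687% higher and 1.17% lower, so such counts do not set these lists apart. Counting intervals lay wholly below 1 for 7 of 16 activating, 7 of 11 inhibitory and 7 of 11 core genes. They lay wholly above 1 for 1, 2 and 2. Of 16 genes of activating receptor signalling, 16 had at least 50 summed UMIs and 0 differed 2-fold, with a median log2 ratio of Flcn iΔEC over control of -0.12. Lyn, the kinase that starts the signal, stood at 202 and 207 CPM, and the adaptor Blnk at 158 and 176 CPM. Of 11 of 12 inhibitory genes that reached the minimum, 0 were 2-fold higher and 1 was 2-fold lower, with a median of -0.28. That gene was Cd5, a scavenger receptor shared by T and B-1 cells, at 7.89 and 3.67 CPM. The 11 of 12 core genes of the B lineage had a median of -0.23 with 0 past 2-fold, among them Ms4a1, which encodes CD20, at 917 and 770 CPM, and Fcmr, the IgM Fc receptor, at 393 and 277 CPM. Over all 8728 genes tested the median was -0.11.

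The heavy chain readings set Fcer2a-positive cells apart from B cells without Fcer2a. Fcer2a-positive cells held 5227 Ighd and 22393 Ighm UMIs in the control, against 2227 and 8632 in Flcn iΔEC, ratios of 0.233 (0.226 to 0.241) and 0.258 (0.246 to 0.270). Fcer2a-negative B cells had ratios of 0.0822 and 0.0883. The selection required Ighd in the former, but among Fcer2a-negative B cells with at least 1 Ighd UMI the ratio was still 0.121 (0.115 to 0.128) and 0.126 (0.120 to 0.133). Ighm itself was lower in Fcer2a-positive cells, at 2598 against 3331 CPM in the control and 1982 against 2862 CPM in the Flcn iΔEC library. A UMI of a switched isotype was found in 32 cells of the control, 2.55% (1.75 to 3.58%), and in 22 of Flcn iΔEC, 4.06% (2.56 to 6.08%). Of 13 heavy and light chain constant regions in the list, 6 reached the minimum, 0 differed 2-fold between libraries, and their median log2 ratio was -0.40.

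Light chains were read as the lambda share of the Igkc, Iglc1, Iglc2 and Iglc3 UMIs of a cell. At least 10 such UMIs were found in 1253 of 1256 control and 539 of 542 Flcn iΔEC Fcer2a-positive cells, and in 0 T cells. With a share of at least 80% taken as lambda, 75 cells of the control, 5.99% (4.74 to 7.45%), and 37 of Flcn iΔEC, 6.86% (4.88 to 9.34%), were lambda cells. The intervals overlapped. Their medians were 0 Igkc and 33 Iglc1 UMIs in the control, against 0 and 24 in Flcn iΔEC. Fcer2a-negative B cells had lambda shares of 8.17% (6.28 to 10.4%) and 8.99% (6.92 to 11.4%). The remaining cells were not free of lambda transcripts, whose source (transcription of the constant genes, read assignment or another) was not tested, so a lambda share below the limit is not read as use of a lambda chain. Shares of 20 to 50% were found in 53.4% of control and 47.9% of Flcn iΔEC Fcer2a-positive cells, and under 5% in only 28 and 16 cells. Cells below the 80% limit had medians of 42 Igkc, 3 Iglc1, 7 Iglc2 and 4 Iglc3 UMIs in the control, against 34, 3, 3 and 4 in Flcn iΔEC. An Iglc UMI was present in 99.7% and 99.6% of Fcer2a-positive cells against 10.6% and 4.32% of T cells of the same libraries. A UMI of the variable genes Iglv1 to Iglv3 was present in 16.0% and 27.0% of lambda cells and in 5.35% and 3.78% of the others. The constant genes lie on chromosome 16, Iglc2 at 19198396 to 19200351 and Iglc3 at 19065230 to 19065681, and Iglc2 and Iglc3 are near-identical copies, so that the split of UMIs between them is uncertain.

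**Figure D2:**
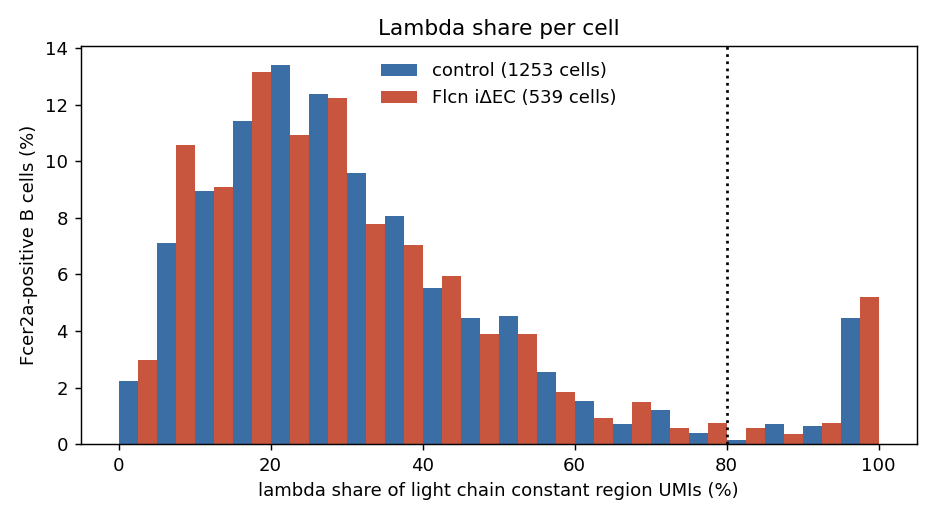
Lambda share of the light chain constant region UMIs of a cell (x axis, in bins of 5%) against the percentage of Fcer2a-positive B cells (y axis), with at least 10 light chain UMIs, in the control (1253 cells) and Flcn iΔEC (539 cells) libraries. Beyond the dotted limit of 80% lie 5.99% and 6.86% of the cells, most of them in the bin from 95%, and the broad hump below 60% peaks between 15 and 30%.

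To describe what else went with Fcer2a, Fcer2a-positive cells were set against the Fcer2a-negative B cells of their own library. The groups were separated by reading Fcer2a and Ighd in the same cells, so these values are a description. Of 8311 genes with at least 50 UMIs in each library, 4 were at least 2-fold higher in Fcer2a-positive cells in both libraries, 0.0481%, and 30 at least 2-fold lower, 0.361%. The 4 were Fcer2a and Ighd of the selection, Fam101b, at 23.3 against 6.23 CPM in the control and 30.8 against 13.5 CPM in the Flcn iΔEC library, and Ildr1, at 12.99 against 4.15 CPM and 8.27 against 3.79 CPM. A smaller fold, 1.25, was added after the data had been seen, and was passed in both libraries by 264 genes upward, 3.18%, and by 562 genes downward, 6.76%. The medians of all genes were -0.03 and -0.04 on the log2 scale. Fcer2a-negative B cells were deeper, with medians of 7102.5 and 8343 UMIs and a control maximum of 148512 UMIs. The part of depth in these counts was not tested. Fcer2a-negative B cells also held other markers. Myeloid genes summed to 231.6 CPM in the control and stromal genes to 320.4 CPM in the Flcn iΔEC library. S100a8 and S100a9 were among the former and did not reach the minimum in both libraries.

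**Figure D3:**
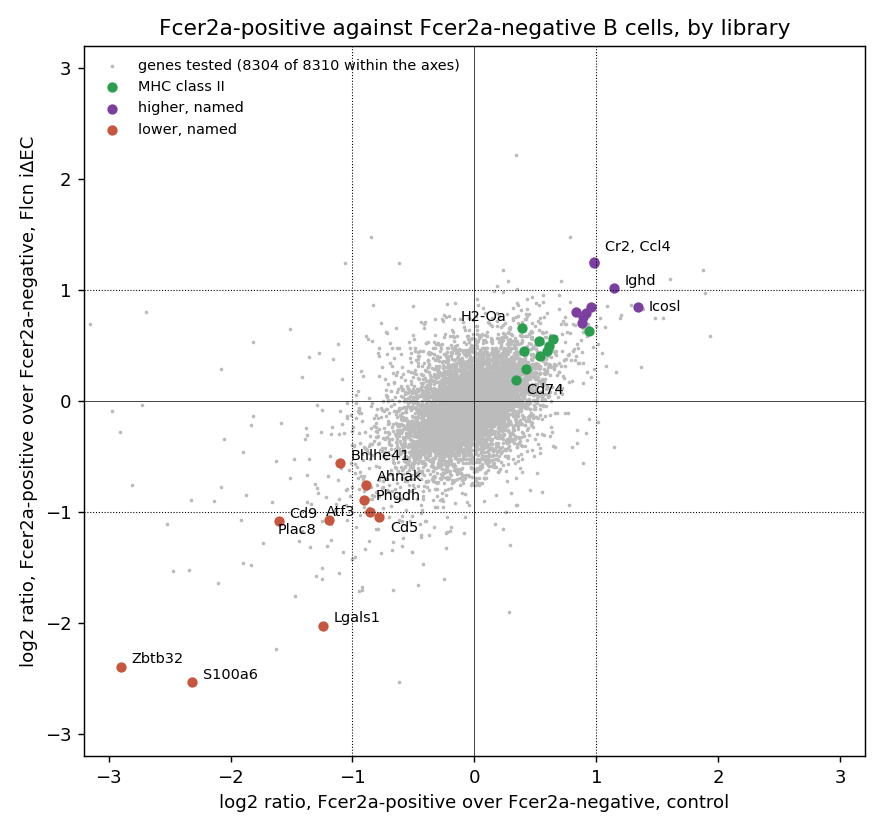
log2 ratio of summed CPM in Fcer2a-positive over Fcer2a-negative B cells in the control (x axis) and the Flcn iΔEC library (y axis), 1 point per gene, with dotted lines at 2-fold and Fcer2a itself left out. Genes coloured as higher or lower were chosen with these ratios known, so their common direction in both libraries was set by that choice. Cr2, Ccl4 and Ighd lie at the upper right, the MHC class II genes below them, and S100a6 and Zbtb32 farthest at the lower left. The axes hold 8304 of 8310 genes.

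MHC class II genes were higher in Fcer2a-positive cells. Of 15 of 16 antigen presentation genes with enough UMIs, 10 were at least 1.25-fold higher in both libraries and 1 was lower, with median log2 ratios of 0.53 for the control and 0.45 for Flcn iΔEC. H2-Ab1, a chain of the classical I-A molecule, stood at 2011 against 1289 CPM in the control, a ratio of 1.56 (1.52 to 1.60), and at 2217 against 1505 CPM in the Flcn iΔEC library, 1.47 (1.43 to 1.52). Its partner H2-Aa stood at 2447 against 1597 CPM and 2749 against 1952 CPM. H2-Eb1 of the I-E molecule stood at 2073 against 1368 CPM and 2456 against 1795 CPM. The coactivator Ciita had the ratios 1.93 (1.63 to 2.28) and 1.55 (1.28 to 1.89), from 60.0 against 31.1 CPM and 51.4 against 33.1 CPM. The peptide loading genes H2-DMa, H2-DMb1, H2-Oa and H2-Ob were 1.31-fold to 1.57-fold higher. The invariant chain Cd74 was 1.26-fold and 1.14-fold higher. Icosl, a costimulatory ligand for T cells, stood at 52.6 against 20.6 CPM and 42.0 against 23.4 CPM, ratios of 2.55 (2.09 to 3.13) and 1.80 (1.44 to 2.25). The activation antigen Cd83 was 1.47-fold and 1.44-fold higher. The gene that went the other way was Ifi30, a lysosomal thiol reductase, at 427 against 556 CPM and 456 against 751 CPM. Cd80 fell short of the minimum, with 0.580 and 0 CPM in Fcer2a-positive cells.

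The 150 bases before the start sites of H2-Aa and H2-Eb1 are shown because these genes were higher together and because class II promoters are known for a conserved Y box, bound by NF-Y, that stands among the elements through which Ciita acts. In capitals is CTGATTGG, searched on both strands (5′ to 3′, RefSeq on GRCm38.p6, chr17:34287824-34287973 on the minus and chr17:34305717-34305866 on the plus strand).
H2-Aa: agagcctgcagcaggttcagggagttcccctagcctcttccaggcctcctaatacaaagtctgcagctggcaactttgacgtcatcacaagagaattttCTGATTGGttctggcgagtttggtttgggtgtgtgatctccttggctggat
H2-Eb1: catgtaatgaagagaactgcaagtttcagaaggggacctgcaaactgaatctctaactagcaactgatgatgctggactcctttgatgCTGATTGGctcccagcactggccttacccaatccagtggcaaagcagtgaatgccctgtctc
The motif began 51 bases before the start of H2-Aa and 62 bases before that of H2-Eb1. It was present in 1258 of the 32851 windows of 250 bases, 3.83%. Among these was the outermost Fcer2a start printed above, where it began 178 bases before the start. The heat shock genes Hspa1a and Hspa1b held it too, 70 bases before their starts. It overlaps the CCAAT box, which was present in 33.8% of windows.

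Cr2, Gpr183, Ccr6 and Ccr7 were also higher in Fcer2a-positive cells of both libraries. Cr2, the complement receptor CD21 and a known partner of CD23, stood at 46.9 against 23.6 CPM in the control, a ratio of 1.98 (1.64 to 2.41), and at 26.9 against 11.2 CPM in the Flcn iΔEC library, 2.40 (1.76 to 3.29). Gpr183, the oxysterol receptor that positions B cells in follicles, had ratios of 1.84 and 1.63, from 245.5 against 133.3 CPM and 232.4 against 142.6 CPM. The chemokine receptor Ccr6 stood at 49.2 against 26.03 CPM and 73.9 against 42.6 CPM. Its relative Ccr7, which guides lymphocytes into lymph nodes, was 1.32-fold and 1.37-fold higher. Cxcr5, the receptor for the follicular chemokine Cxcl13, was nearly level at 1.09 and 1.20. In all, 3 of 16 genes of the follicular and homing list were at least 1.25-fold higher in both libraries and 0 were lower, with medians of 0.17 and 0.17.

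Ccl4, a chemokine, stood at 122.5 against 62.1 CPM in the control and 126.3 against 53.2 CPM in the Flcn iΔEC library, where 1 cell held 10.4% of its 550 UMIs. Among the transcription factors, Satb1, a chromatin organizer, was 1.86-fold and 1.69-fold higher, Mef2c 1.38-fold and 1.42-fold, and Zfp318, which is needed for IgD transcripts, 1.62-fold (1.41 to 1.86) and 1.77-fold (1.55 to 2.03). Of the 22 transcription factors in the list 3, Bach2, Mef2c and Zfp318, were at least 1.25-fold higher in both libraries and 0 lower, with medians of 0.16 and 0.06. The endocytosis gene Fchsd2 was 1.78-fold and 1.75-fold higher. Dmxl1, Marcksl1, Stap1, Rasgef1b and Vps37b completed the 15 largest ratios, with the smaller ratio of the 2 libraries between 1.41 and 1.48.

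Genes of the interleukin-4 and STAT6 list were higher in part. Of 12 of 13 genes tested, 4 were at least 1.25-fold higher in both libraries, Fcer2a of the selection included, and 0 lower, with medians of 0.37 and 0.25. Il4i1, an amino acid oxidase induced by interleukin-4, stood at 76.6 against 39.4 CPM and 45.5 against 25.2 CPM, ratios of 1.94 (1.67 to 2.26) and 1.80 (1.45 to 2.24). The receptor chain Il4ra had ratios of 1.67 and 1.29. Bcl6, a repressor known from germinal centre B cells, had 1.76 and 1.37. Stat6 had 1.31 and 1.18. In the list of Fc receptors and CD23 partners, 2 of 8 tested genes were higher, Fcer2a and Cr2, and 1 was lower, Cd9, with medians of -0.03 and 0.43. Adam10, the protease that sheds CD23, was level, with ratios of 0.998 and 0.998. In the BAFF and survival list 2 of 10 were higher and 0 lower, with medians of 0.08 and 0.28, and Cd40, the receptor for T cell help, had ratios of 1.49 and 1.31. The BAFF receptor Tnfrsf13c had 0.967 and 0.932.

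Most genes of the B-1 list were lower in Fcer2a-positive cells. That list, like the others, was chosen with earlier results of these data known, so its counts are a description. Of 10 of 12 genes tested, 8 were at least 1.25-fold lower in both libraries, 5 of them 2-fold, and 0 were higher, with medians of -1.17 and -1.07. S100a6, a calcium-binding protein, stood at 73.8 against 367 CPM in the control, a ratio of 0.201 (0.184 to 0.220), and at 171.6 against 995 CPM in the Flcn iΔEC library, 0.172 (0.160 to 0.186). Zbtb32, a transcriptional repressor, stood at 3.13 against 24.1 CPM and 3.22 against 17.9 CPM, the Fcer2a-positive levels resting on 27 and 14 UMIs. The tetraspanin Cd9 stood at 21.5 against 65.5 CPM and 20.4 against 43.6 CPM. Bhlhe41, a transcription factor that B-1a cells need, had ratios of 0.465 (0.412 to 0.526) and 0.677 (0.601 to 0.762). The galectin Lgals1 had 0.422 and 0.244. It is not particular to B cells, at 296 and 270 CPM in T cells, where S100a6 stood at 45.4 and 82.2 CPM. Fcer2a-negative B cells also held the myeloid and stromal markers given above, whose part in these ratios was not tested. Cd5 had 0.581 (0.416 to 0.809) and 0.465 (0.246 to 0.833), from 68 and 16 UMIs in Fcer2a-positive cells. Zcwpw1 and Arid3a, the remaining 2, had ratios of 0.963 and 1.01 and of 0.716 and 0.999.

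Outside that list, Plac8 stood at 821 against 1880 CPM and 1057 against 2216 CPM, ratios of 0.437 and 0.477. Phgdh, the first enzyme of serine synthesis, had ratios of 0.535 and 0.539, and the stress-induced factor Atf3 0.551 and 0.499. The cytoskeletal genes Crip1 and Vim had 0.664 and 0.473 and 0.667 and 0.426. Iglc1, S100a10, Pycard, Npc2, Ccnd2 and Psap, with Ahnak of the B-1 list, completed the 15 largest ratios downward, the larger of their 2 ratios lying between 0.593 and 0.683. Of 7 tested cell cycle genes 3 were lower and 0 higher, with medians of -0.04 and -0.60, among them the replication helicase genes Mcm5, at 10.4 against 19.8 CPM and 7.35 against 24.5 CPM, and Mcm6. The selection removed cells with more than 2 UMIs of Mki67 and Top2a from both groups, and cells with fewer remained, among them 26 control and 13 Flcn iΔEC Fcer2a-positive cells with exactly 2.

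Lists of other B cell stages were mixed. Of 8 of 14 immature and transitional genes tested, 1 was at least 1.25-fold higher and 2 lower, Myb, a factor of precursors, by more than 2-fold, at 11.1 against 28.4 CPM and 6.66 against 17.0 CPM. Cd24a was 0.715-fold and 0.707-fold, and Cd93 1.13-fold and 1.12-fold. Of 8 of 10 marginal zone genes, 1 was higher, Cr2, and 2 were lower, Plac8 and Cd9, with medians of -0.32 and -0.04. In the germinal centre list only 2 of 12 genes could be tested, of which Bcl6 was higher. In the plasma cell list 6 of 11 were tested, 1 was lower and 0 higher, and Jchain had 7 and 6 UMIs. Medians were -0.11 and -0.14.

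In the signalling and remaining lists some genes passed 1.25-fold in both libraries. Over all 8311 genes tested the shares were 3.18% higher and 6.76% lower. Of 16 NF-kB and activation genes 3 were at least 1.25-fold higher, Cd83, Ccr7 and Il4i1, and 0 lower. Of 15 immediate early genes 1 was higher, Dusp1, a phosphatase, and 1 lower, Atf3. Of 7 Toll-like receptor genes 0 were higher and 2 lower, Tlr7 and Ly86, and of 11 interferon-stimulated genes 0 and 3. In the activating receptor list 2 of 16 were higher and 0 lower. In the inhibitory list 0 of 11 were higher and 2 lower, Cd5 and Ptpn22. In the lymphotoxin and cytokine list 1 of 7 was higher, Lta. In the B lineage core 0 of 11 were higher and 1 lower, Ms4a1. The heat shock and the Flcn and MiT/TFE lists had 0 of 10 each in either direction.

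Within the Fcer2a-positive cells, levels were followed by the number of Fcer2a UMIs per cell, as a description of cells of like depth above the threshold. The control held 260 cells with 1 UMI, 369 with 2 to 3 and 627 with 4 or more, with median depths of 5950.5, 5739 and 6198 UMIs. The Flcn iΔEC library held 153, 209 and 180 cells, with 7008, 7544 and 7953.5 UMIs. In the control, Il4i1 stood at 39.4 CPM in cells with 0 Fcer2a UMIs and at 52.8, 65.6 and 92.7 CPM in the 3 following classes. Cr2 stood at 23.6, 35.0, 42.5 and 54.3 CPM, and H2-Ab1 at 1289, 1658, 2012 and 2156 CPM. Plac8 went the other way, from 1880 CPM over 1023 and 916 to 684 CPM, and Bhlhe41 from 108.4 CPM over 66.7 and 51.8 to 43.0 CPM. Classes with Fcer2a also required Ighd, which 521 of 726 control and 506 of 663 Flcn iΔEC cells of the 0 class held. The largest step in CPM of H2-Ab1, S100a6, Plac8 and Bhlhe41 lay between 0 and 1 UMI in both libraries. For Il4i1 this held in the Flcn iΔEC library only. In that library Cr2 stood at 11.2, 19.3, 30.7 and 28.3 CPM, the second value resting on 22 UMIs. Plac8 stood at 2216, 1181, 1044 and 981 CPM and Bhlhe41 at 140.8, 102.9, 90.9 and 94.5 CPM. H2-Ab1 stood there at 1505 CPM without Fcer2a and at 2209, 2286 and 2149 CPM with it, Il4i1 at 25.2, 44.0, 37.9 and 54.6 CPM, and S100a6 at 995, 275, 132 and 138 CPM. In the control, S100a6 had no steady order, at 367, 98.9, 122 and 36.1 CPM. For Il4i1, Cr2, H2-Ab1, Plac8 and Bhlhe41, control cells with 1 UMI lay between those with 0 and those with 2 to 3, and a cell with few reads can fall in a lower class by chance of sampling.

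**Figure D4:**
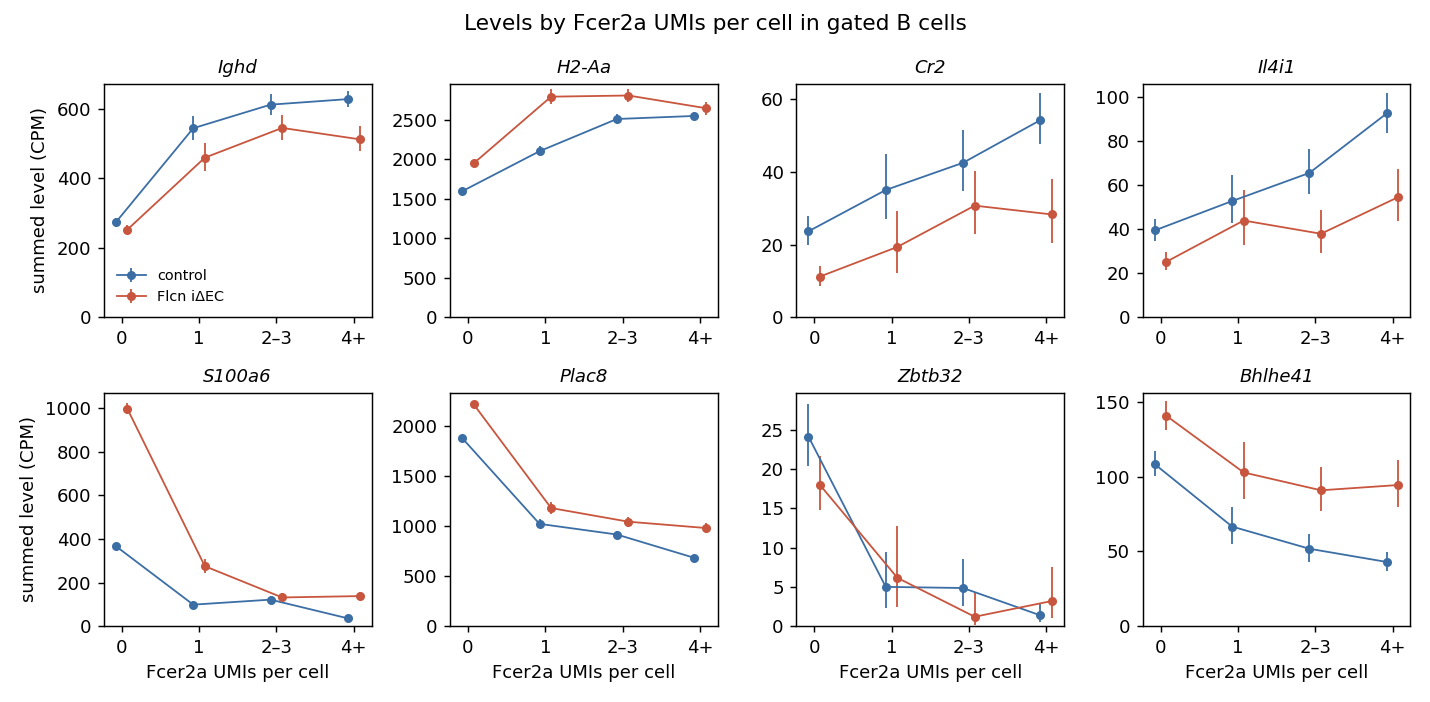
Summed level in CPM (y axis) of 8 genes in gated B cells with 0, 1, 2 to 3 and 4 or more Fcer2a UMIs per cell (x axis), where cells with Fcer2a also have Ighd, in the control and Flcn iΔEC libraries. Bars are exact Poisson 95% intervals. Il4i1 climbs from 39.4 to 92.7 CPM in the control, and S100a6 drops from 995 to 275 CPM at the first step in the Flcn iΔEC library.

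Between the libraries, Fcer2a-positive cells differed in few genes. Of 8728 genes with at least 50 UMIs, 60 were at least 2-fold higher in the Flcn iΔEC cells, 0.687%, and 102 at least 2-fold lower, 1.17%. After the log2 ratios had been centred on their median, -0.11, the counts were 88 and 69, and with CPM taken without immunoglobulin, mitochondrial, ribosomal protein and hemoglobin genes 75 and 73, so the balance of directions depends on the scaling. The largest ratios are compared below with those in Fcer2a-negative B cells and T cells of the same 2 libraries, which share the same pools of mice and preparations.

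**Figure D5:**
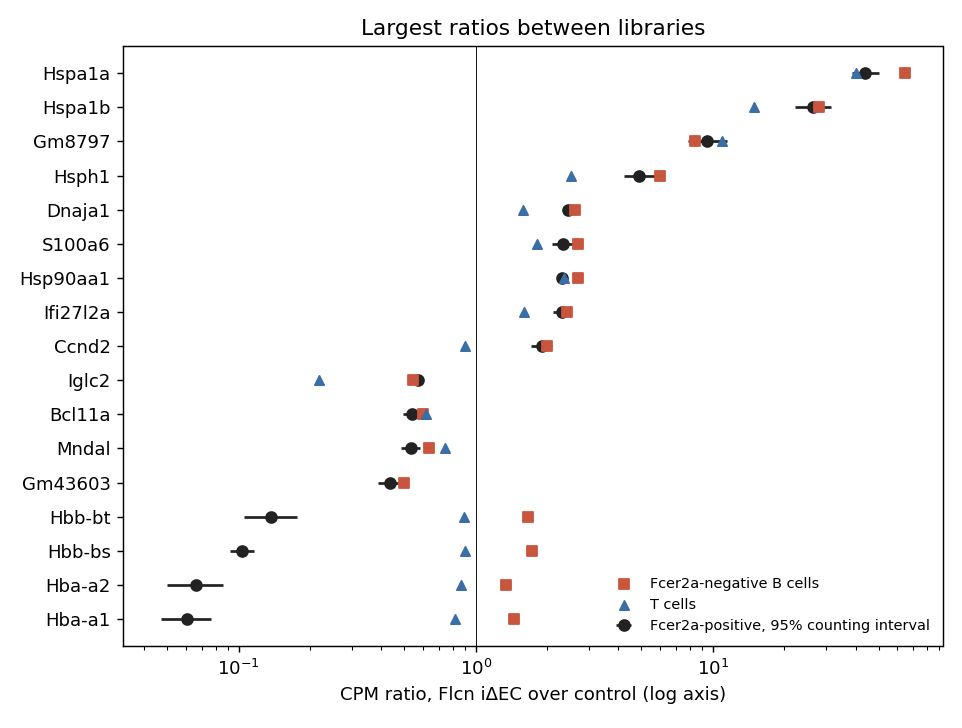
CPM ratio of Flcn iΔEC over control (x axis, logarithmic) for the genes with the largest ratios in Fcer2a-positive B cells (y axis), without Xist, Ddx3y and Eif2s3y, which were at 0 in 1 library. Circles with bars show Fcer2a-positive cells with exact 95% counting intervals, squares Fcer2a-negative B cells and triangles T cells, among which Gm43603 was at 0 in the Flcn iΔEC library and has no triangle. The symbols of the heat shock genes lie on the same side of 1, while the hemoglobin circles stand alone at 0.0604 to 0.137.

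Heat shock genes were higher in the Flcn iΔEC cells. All 11 genes of the list were tested, 6 were at least 2-fold higher and 0 lower, and the median log2 ratio was 1.21. Hspa1a, an inducible HSP70 chaperone, stood at 27.7 CPM in control Fcer2a-positive cells, against 1219 CPM in Flcn iΔEC, a ratio of 44.0 (38.6 to 50.2). After thinning it was found in 4.22% of control and 63.8% of Flcn iΔEC cells. Its neighbour Hspa1b, a near-identical copy with which it shares reads, stood at 16.4 and 432 CPM. The cochaperones Hsph1 and Dnaja1 stood at 28.2 and 138 CPM and at 383 and 934 CPM, and Hsp90aa1 at 845 and 1958 CPM. The constitutive Hspa8 stood at 1313 and 1699 CPM. The ratio of Hspa1a was 64.8 in Fcer2a-negative B cells and 40.2 in T cells, and that of Hsp90aa1 2.71 and 2.35. The heat shock genes thus moved in all 3 kinds of cell of these libraries, and handling of the tissue, pool and genotype cannot be told apart.

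The 150 bases before the start of Hspa1a are shown because it led the named genes found in both libraries (5′ to 3′, RefSeq on GRCm38.p6, chr17:34972157-34972306, minus strand). In capitals is GAANNTTC, a pair of heat shock units facing each other, which reads the same on both strands.
Hspa1a: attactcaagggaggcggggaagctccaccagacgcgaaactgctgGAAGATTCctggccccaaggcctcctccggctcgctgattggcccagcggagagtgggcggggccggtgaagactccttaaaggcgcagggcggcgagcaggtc
The motif began 104 bases before the start, was at the same distance in Hspa1b, and was present in 6.69% of all windows of 250 bases. H2-Aa, with a ratio of 1.12 between libraries, holds it too.

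The pools also differed in sex-linked genes. Xist, which silences an X chromosome in females, had 0 UMIs in control Fcer2a-positive cells and 1216 CPM in Flcn iΔEC cells, at least 3494-fold higher against a floor of 3 UMIs. The Y-linked genes Ddx3y and Eif2s3y stood at 139.8 and 119.9 CPM in the control and at 0 UMIs in the Flcn iΔEC cells, at least 203-fold and 174-fold lower. Of the 6 sex-linked genes 2 were 2-fold higher and 4 lower, and Xist was also at 0 UMIs in control and at 1202 CPM in Flcn iΔEC Fcer2a-negative B cells. Genotype and the sex of the pooled mice therefore cannot be told apart in any comparison between these libraries.

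Hemoglobin genes were among the largest ratios downward, and 1 cell carried them. Hbb-bs stood at 725 CPM in control Fcer2a-positive cells, against 75.1 CPM in Flcn iΔEC, Hba-a1 at 266 and 16.1 CPM, Hba-a2 at 198 and 13.1 CPM and Hbb-bt at 113.7 and 15.6 CPM. In the control, 1 cell held 10668 of the 11234 hemoglobin UMIs, and the next cell held 6. Without that cell the control stood at 39.3 CPM for Hbb-bs and 9.65 CPM for Hba-a1, and the ratios of Flcn iΔEC over control were 1.91 and 1.67, turned in direction. The erythroid and platelet list had 4 of 8 genes tested, all 4 of them hemoglobin genes at least 2-fold lower. A hemoglobin UMI was found in 34.4% of control and 60.7% of Flcn iΔEC Fcer2a-positive cells.

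Among the other named genes, S100a6 stood at 73.8 and 171.6 CPM, a ratio of 2.32 (2.09 to 2.59), and 2.18 without the cell of each library that held most of it, 13.5% and 19.1% of its UMIs. Ifi27l2a, an interferon-stimulated gene, stood at 105.7 and 244.4 CPM. In Fcer2a-negative B cells and T cells the ratios were 2.71 and 1.81 for S100a6 and 2.42 and 1.60 for Ifi27l2a. Of 11 of 20 interferon-stimulated genes tested, 3 were at least 2-fold higher and 0 lower, with a median of 0.50. It was 1.21 with no count minimum, a value that takes in genes near 0 UMIs. For such genes the 1 UMI added to each sum raises the ratio. The Flcn iΔEC total was the smaller, at 4354356 against 8618735 UMIs. The part of this in the median was not tested. Irf7, a factor of the interferon response, stood at 4.29 and 12.2 CPM and Isg15, a ubiquitin-like modifier, at 2.78 and 7.35 CPM. Ccnd2, a cyclin of the G1 phase, stood at 96.0 and 181.9 CPM, with ratios of 1.90 in Fcer2a-positive and 1.99 in Fcer2a-negative B cells but 0.901 in T cells. Gm8797, a predicted gene, stood at 15.9 and 150.7 CPM, with ratios of 8.37 in Fcer2a-negative B cells and 10.9 in T cells. Downward, Bcl11a, a transcription factor of early B cells, stood at 268.9 and 145.1 CPM, a ratio of 0.540 (0.493 to 0.590), against 0.596 in Fcer2a-negative B cells. In T cells it rested on 31 and 9 UMIs and its interval, 0.259 to 1.33, held 1. Mndal, an interferon-inducible gene, stood at 271.2 and 144.2 CPM, the predicted gene Gm43603 at 179.8 and 78.3 CPM and Iglc2 at 1343 and 768 CPM. In Fcer2a-negative B cells the ratios were 0.634 for Mndal, 0.497 for Gm43603 and 0.544 for Iglc2, and Mndal had 0.741 in T cells.

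In the remaining lists few genes passed 2-fold between the libraries. Over all 8728 genes tested the shares were 0.687% higher and 1.17% lower, so a count of 0 does not set a short list apart. The MHC class II and antigen presentation list had 0 of 15 genes past 2-fold in either direction and a median of 0.09, with H2-Aa at a ratio of 1.12 (1.10 to 1.15) and H2-Eb1 at 1.18 (1.16 to 1.21). The B-1 list had 1 of 8 higher, S100a6, and 1 lower, Cd5, while Bhlhe41 stood at 50.5 and 95.3 CPM, a ratio of 1.89 (1.65 to 2.17). The Toll-like receptor list had 1 of 8 higher, Tlr7, an X-linked RNA sensor, at 5.22 and 11.02 CPM. No gene passed 2-fold among the 22 transcription factors, the 16 follicular and homing, 16 immediate early, 16 NF-kB, 12 interleukin-4, 11 survival, 10 Flcn and MiT/TFE, 9 Fc receptor, 8 transitional, 8 marginal zone, 7 cytokine, 6 plasma cell, 6 cell cycle and 3 germinal centre genes tested. Their medians lay between -0.18 and 0.07, except for -0.51 in the Fc receptor list, which holds Fcer2a and Cr2. The level of Cr2 was 46.9 and 26.9 CPM, a ratio of 0.573 (0.463 to 0.706), that of Il4i1 76.6 and 45.5 CPM, 0.594 (0.504 to 0.697), and that of Pou2f2, a factor of immunoglobulin transcription, 518 and 314 CPM, 0.606 (0.570 to 0.644). Tfe3, a transcription factor controlled by Flcn, stood at 37.2 and 38.4 CPM, a ratio of 1.03, and its relative Tfeb at 49.1 and 28.9 CPM, 0.590 (0.479 to 0.721), against 0.800 in Fcer2a-negative B cells and 0.569 in T cells. Of 4 T cell genes tested 2 were 2-fold lower, Trbc2 at 17.2 and 6.89 CPM and Cd5. Of 3 endothelial genes 1 was higher, Cldn5, at 2.78 and 7.81 CPM, and of 2 myeloid genes 0.

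The highest levels in Fcer2a-positive cells, apart from ribosomal protein, mitochondrial and immunoglobulin genes, were those of Malat1, at 21315 CPM in the control and 19605 CPM in Flcn iΔEC cells, the actin-binding Tmsb4x, at 11325 and 10779 CPM, and Cd74, at 9532 and 10312 CPM. These are counts of 3′ ends and are not scaled by transcript length, so an order between genes is not read from them. Among the 20 genes with the highest levels, ratios between the libraries lay between 0.741 for Cd52, a surface glycopeptide of lymphocytes, and 1.32 for the chaperone Hsp90ab1.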

How the data were processed

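CD31+ mesenteric cells of control and Flcn iΔEC mice at P8 were profiled in 1 library each with a 3′ droplet kit. Per the labels, Cell Ranger 3.0 was used for alignment and read filtering. The authors deposited its UMI counts, not normalized, for 28692 genes, and the submitters' processing notes name the build mm10. The annotation is not given in the sources used here.

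The analysis used Python 3.11.15, with scipy 1.17.1 for intervals, numpy 2.4.6, pandas 2.3.3 for tables and matplotlib 3.10.9 for figures. No doublets were removed. Scrublet in scanpy 1.11.5 (expected rate 6%) was run as an alternative. The libraries held 6814 and 4459 cells. UMIs were summed over the cells of a kind and given as CPM of all UMIs, and log2 ratios had 1 UMI added. Genes needed 50 summed UMIs over both libraries or, against Fcer2a-negative B cells, 50 in each library. Since there was 1 library per genotype and cells are not replicates, no test was run, and a gene counts as different past 2-fold. Intervals are exact (Poisson, conditional or Clopper-Pearson, 95%) and cover counting error only. A level of 0 was given a floor of 3 UMIs over the group. Shares were also read after thinning each cell once to 2000 UMIs. The ratio and interval steps were tested on simulated data.

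The cells and the 29 gene lists (353 genes, 4 of them not found in the files) were chosen with earlier results of these data known. Named were genes of the selection and lists, the 10 largest ratios each way between libraries and the 15 each way against Fcer2a-negative B cells among genes of at least 100 CPM, and the 20 highest levels. Fam101b, Ildr1 and the single genes below 50 UMIs were named after their values had been seen. Promoter windows came from RefSeq (GRCm38.p6) and gene positions from GENCODE; H2-Ab1 is not among the windows.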

Additional observations from a re-analysis of the deposited data

Results flagged for a closer look

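Several named genes had ratios of Flcn iΔEC over control on opposite sides of 1 in different kinds of cell, by at least 1.25-fold each. The differences were not tested, and 1 library per genotype gives no spread. The ratio was 0.0604 for Hba-a1, 0.066 for Hba-a2, 0.104 for Hbb-bs and 0.137 for Hbb-bt in Fcer2a-positive B cells, against 1.44, 1.34, 1.73 and 1.65 in Fcer2a-negative B cells. For these 4 genes 1 control cell, with 10668 of 11234 hemoglobin UMIs, set the direction, and without it the ratios in Fcer2a-positive cells were 1.67, 1.66, 1.91 and 1.74, on the same side as in Fcer2a-negative cells. Lgals1 had a ratio of 0.753 in Fcer2a-positive and 1.30 in Fcer2a-negative B cells. Bhlhe41 had a ratio of 1.89 in Fcer2a-positive B cells and 0.640 in T cells, the latter from 10 and 3 UMIs with an interval of 0.113 to 2.49 that holds 1, so that no opposite movement was shown.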

How the results depend on the processing

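No paired analysis was possible because each genotype has 1 library and the result comes from no test. The share of gated B cells with Fcer2a and Ighd was 46.7% in the control, against 31.0% in Flcn iΔEC, with at least 2 Fcer2a UMIs, 27.5% and 16.7% after thinning to 2000 UMIs, and 55.0% in the control with at most 5% mitochondrial UMIs. The control share was the higher under each of the 6 alternatives tried for it. Genes 2-fold higher and lower in Flcn iΔEC cells numbered 17 and 20 with at least 200 UMIs and 1401 and 779 with no minimum. Genes 2-fold higher and lower than in Fcer2a-negative B cells numbered 146 and 407 with no minimum and 2 and 17 against Fcer2a-negative cells with Ighd. With 200 UMIs 11 were lower, with cells of at least 5000 UMIs 7 were higher, and with centred log2 ratios 7. The control lambda share was 4.47% with a limit of 95%. Log2 ratios of Flcn iΔEC over control turned positive for hemoglobin genes. With at least 2 Fcer2a UMIs they were 0.82 for Hba-a1, 0.62 for Hba-a2, 0.85 for Hbb-bs, 0.87 for Hbb-bt and 0.83 for the erythroid and platelet median. Without the 1 control cell of over 10% hemoglobin, an alternative added after seeing the data, they were 0.74, 0.73, 0.93, 0.81 and 0.77. The interferon-stimulated median of log2 ratios was 1.21 with no count minimum, against 0.50. With no minimum, the 1 UMI added to each sum raises ratios of Flcn iΔEC over control for genes near 0 UMIs. The part of this in that median and in the counts of 1401 and 779 genes was not tested. Nor was the cause of the other changes tested. Of the recomputed main values 41 stayed close to the reported one and 17 moved, and of those of single genes 1218 stayed, 4 moved and 8 turned in direction. Counting depth limits genes below 50 UMIs, and low shares of cells with a UMI follow depth.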
